A study of Mus musculus with 6 samples.

Results

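Genes of fatty acid oxidation and ketone metabolism were followed in RNA-seq libraries of hearts from mouse embryos at embryonic day 18.5 (E18.5). They were taken by gene symbol from a list of 40 that covers acyl-CoA activation, the carnitine shuttle, mitochondrial and peroxisomal β-oxidation and ketone enzymes, and 39 of them matched a row among the 13809 genes of the count table. Ucp3 was not analysed here. All 39 were among the 13804 genes that passed the filter on low counts. In Pkm1-KO hearts 18 of the 39 were lower (46.2%, beside 15.7% of all tested genes) and 2 were higher (5.13%, beside 14.6%) than in wild type (WT), and most of the changes were small.

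The study asked what the loss of Pkm1, the pyruvate kinase isoform that heart and muscle splice from Pkm, does to the embryonic heart. The WT hearts gave 3 libraries, and 3 came from pkm1-knockout (KO) hearts, both at E18.5. The KO allele is a short frameshifting deletion in the exon used by Pkm1, made with CRISPR/Cas9 in BDF1 zygotes. It is inherited through the germline and so is not limited to cardiomyocytes. The study crossed heterozygotes and names littermate WT embryos for its histology, but gives no litters for these libraries. The labels give the tissue as heart and the study's text as ventricle, and the labels name no treatment for either group. The columns of the count table carry no replicate number, and the libraries are called WT a, WT b and WT c or KO a, KO b and KO c here.

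β-Oxidation shortens a fatty acid chain by a 2-carbon unit at a time. Acyl-CoA synthetases activate the fatty acid, the carnitine shuttle carries it into the mitochondrion, and dehydrogenation, hydration, a second dehydrogenation and thiolysis release acetyl-CoA, while the electrons pass through the electron transfer flavoprotein to the respiratory chain. Peroxisomes run a parallel pathway for chains that mitochondria handle poorly, and ketone bodies are an alternative source of acetyl-CoA. The fetal heart relies largely on glucose and lactate, and fatty acid oxidation becomes the main fuel pathway after birth.

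Promoter stretches are shown for Cpt1a, one of the 2 members that rose, and for Ucp2, Acaa1a and Etfb, the autosomal members with the largest fold decreases among those past the threshold. Each stretch is the part of the 250 bases before the RefSeq start (GRCm38.p6) that holds no annotated exon, printed 5′ to 3′ on the strand of the gene. Capitals mark CCAAT, the box bound by the NF-Y factors, or GGGCGG, the GC box, on either strand, so that ATTGG and CCGCCC are the same motifs read from the other strand.
Cpt1a (chr19:3323051-3323284, plus strand): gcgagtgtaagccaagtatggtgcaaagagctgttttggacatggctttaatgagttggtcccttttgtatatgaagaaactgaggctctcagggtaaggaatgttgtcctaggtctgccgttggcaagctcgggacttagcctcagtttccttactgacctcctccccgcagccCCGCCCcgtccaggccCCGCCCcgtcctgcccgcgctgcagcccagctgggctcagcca
Etfb (chr7:43443822-43444071, plus strand): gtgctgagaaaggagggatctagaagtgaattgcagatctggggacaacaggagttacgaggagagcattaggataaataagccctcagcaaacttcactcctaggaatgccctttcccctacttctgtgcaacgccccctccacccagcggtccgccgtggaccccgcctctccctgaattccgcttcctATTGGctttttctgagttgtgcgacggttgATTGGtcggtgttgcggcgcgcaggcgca
Ucp2 (chr7:100493108-100493336, plus strand): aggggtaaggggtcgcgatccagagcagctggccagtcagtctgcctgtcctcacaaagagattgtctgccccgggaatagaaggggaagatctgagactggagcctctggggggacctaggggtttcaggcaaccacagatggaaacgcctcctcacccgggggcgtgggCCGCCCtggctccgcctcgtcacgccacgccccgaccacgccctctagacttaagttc
Acaa1a (chr9:119341160-119341293, plus strand): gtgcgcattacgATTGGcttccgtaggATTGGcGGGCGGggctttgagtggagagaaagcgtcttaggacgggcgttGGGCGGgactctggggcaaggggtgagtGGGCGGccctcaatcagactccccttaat
The Etfb stretch held 2 CCAAT boxes, with their first bases 59 and 29 bases before the start. Acaa1a held 2 CCAAT boxes and 3 GC boxes, Cpt1a held 2 GC boxes, and Ucp2 held 1 GC box. GENCODE places the first annotated base of Cpt1a, Ucp2 and Acaa1a upstream of the RefSeq start.

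Over whole windows from 250 bases before to 50 bases after the start, 32 of the 40 members had a sequence in the RefSeq table. CCAAT was found in 16 of these 32 (50%), against 42.3% of the 10325 genes of the count table with a window and 41.1% of all 27025 genes with one. GGGCGG was found in 23 of 32 (71.9%), against 67.6% and 38.2%. Of the members that were lower in KO, 14 had a window and 6 of these held CCAAT, while 9 of the 15 members with a window that passed no threshold held it. A direct repeat of AGGTCA spaced by 1 base, the consensus of PPAR elements, was found in no member and in 0.0484% of the genes of the count table. TCAAGGTCA, the consensus of estrogen-related receptor (ERR) elements, was likewise found in no member and in 0.320% of those genes. A match describes letters in this window and not a bound site.

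The libraries held between 15567624 and 19875546 counts. Values are given as CPM, the counts of a gene relative to all counts of its library in parts per 1000000, with library sizes scaled by TMM factors that correct for differences in composition. Total Pkm counts were 1294, 1296 and 1366 CPM in the WT libraries and 547, 530.3 and 549 CPM in the KO libraries (log2 fold change -1.28 ± 0.027 (SE), adjusted p = 1.47e-23, by quasi-likelihood in edgeR with Benjamini-Hochberg adjustment across every tested gene), so the targeted gene moved with its labels, although the count does not separate Pkm1 from Pkm2. No column was a copy of another: χ2 per degree of freedom was 1.56 between WT a and WT b, 3.76 and 3.24 between WT c and these, and between 1.62 and 1.88 among the KO libraries. This check cannot tell libraries of separate hearts from repeated libraries of the same RNA. The common coefficient of variation between libraries of a group, beyond counting error, was 3.42%. Because WT c stood apart from the other WT libraries, results that change without it are given below.

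Of the 39 members, 18 were lower in KO and 2 were higher at an adjusted p under 0.05 in edgeR's quasi-likelihood test across all genes. The lower members made up 46.2% of the 39, and 15.7% of all tested genes were lower. The higher members made up 5.13%, against 14.6% of all tested genes that were higher. Members were more abundant than the typical gene, with a median of 90.6 CPM against 22.8 CPM for all genes, and higher counts make small differences easier to call. When the count was restricted to genes averaging 20 CPM or more, a limit chosen after the values were seen, 18 of 34 members (52.9%) were lower against 20.7% of such genes, and 2 were higher against 14.4% of such genes. Every KO library lay below every WT library for 23 of the 39 members and above every WT library for 2, while this held for 21.4% and 21% of all tested genes.

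The changes were small. The median log2 fold change over the members was -0.10, and it was 0.0017 over all tested genes. Among the 18 members that were lower, the KO mean ranged from 68.1% of the WT mean for Ucp2 to 93.9% for Oxct1. Of the 20 that passed the threshold, 4 differed by 1.2-fold or more, namely Ucp2, Acaa1a, Acsl4 and Etfb, and all of these were lower. The members took 0.622% ± 0.0014 (SD, n = 3) of all counts in WT and 0.597% ± 0.0024 (SD, n = 3) in KO, which left the KO share at 96.0% of the WT share. WT shares lay between 0.620% and 0.623% and KO shares between 0.595% and 0.599%, so the groups did not overlap. In bulk tissue, fewer cells of a type and less RNA per cell cannot be told apart.

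**Figure D1:**
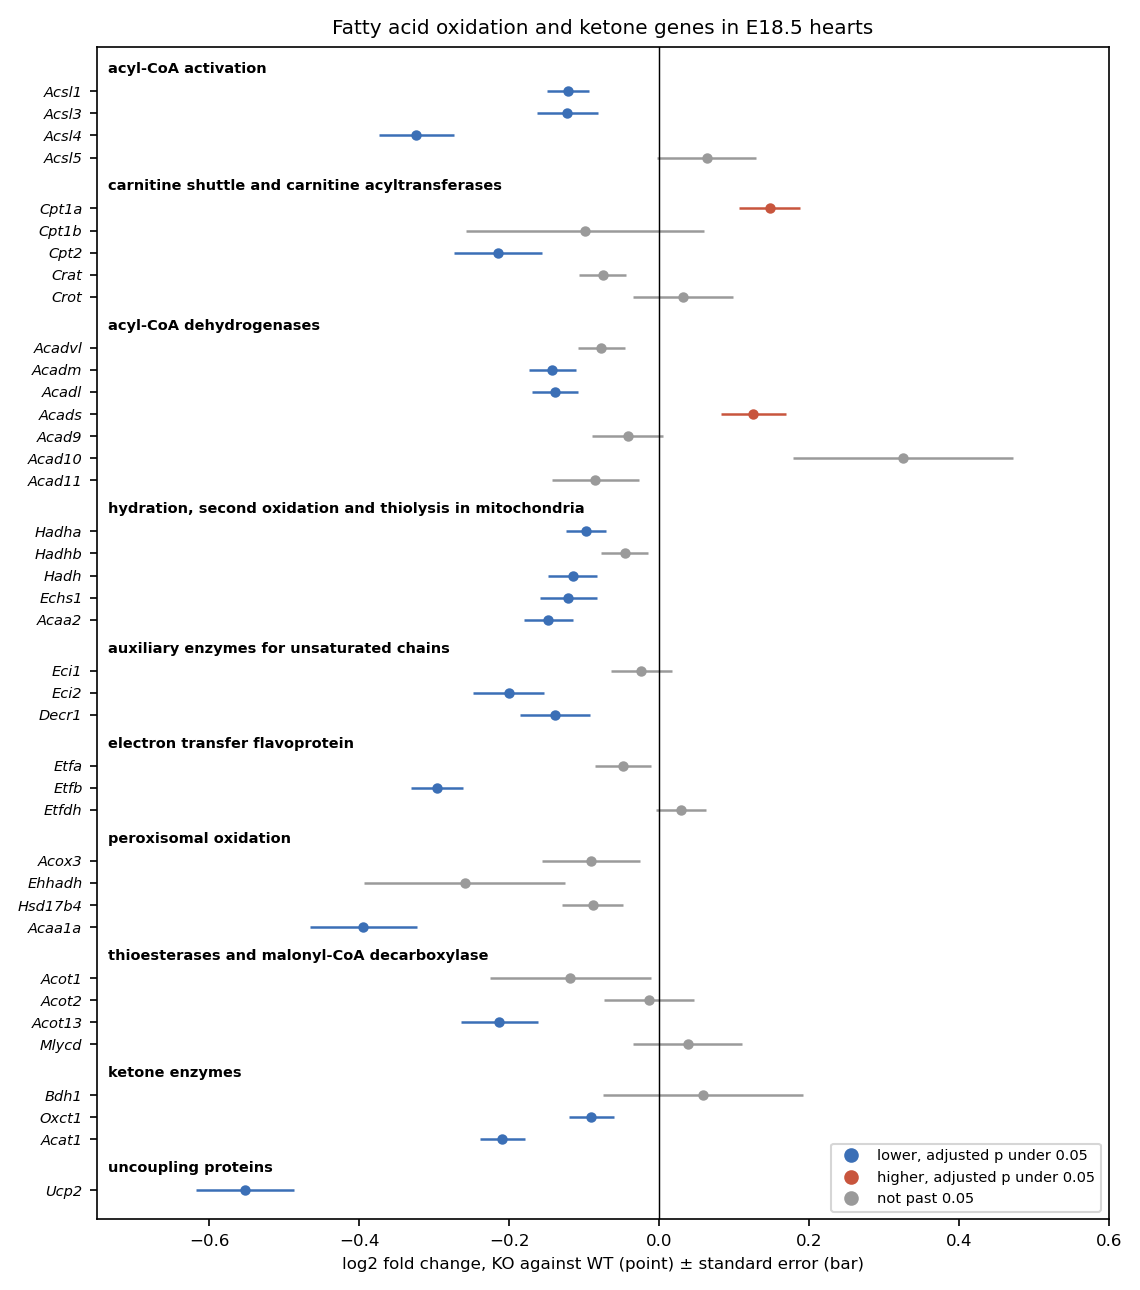
Log2 fold change of each of the 39 members in KO against WT (x axis), grouped by role, with the standard error as the bar (n = 3 libraries a group). Blue points mark the 18 lower members, red points the 2 higher ones, Cpt1a and Acads, and grey points the 19 that did not pass an adjusted p of 0.05; Ucp2 lies farthest to the left.

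**Figure D2:**
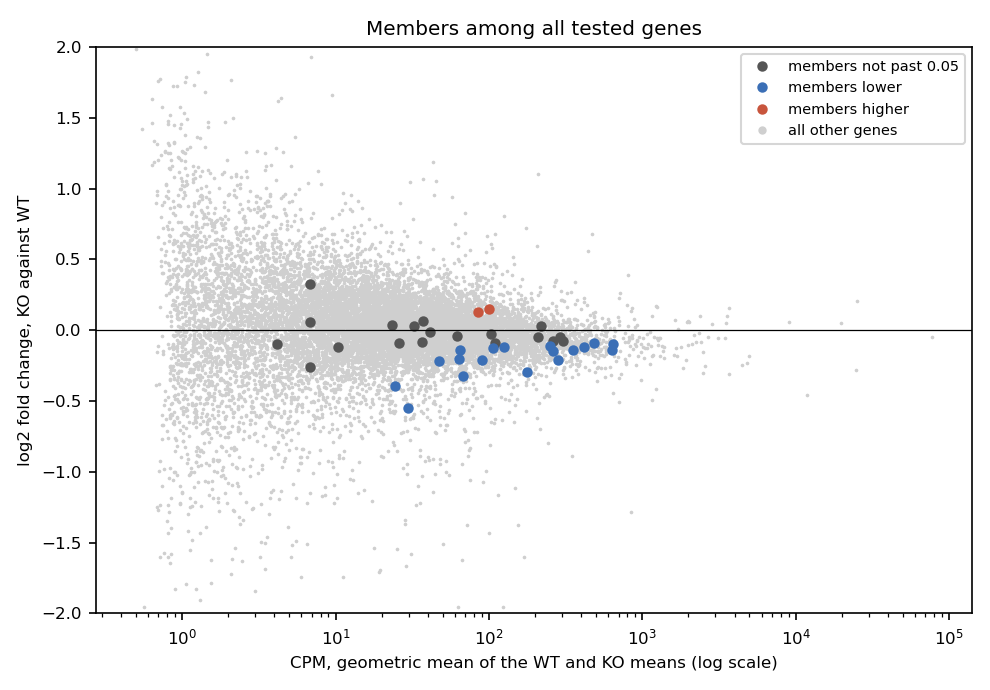
Log2 fold change in KO against WT (y axis) and CPM (x axis, log scale, geometric mean of the group means) for all tested genes, with the members as large points. Members run from Cpt1b, at 4.28 CPM in WT, to Hadha, at 669 CPM in WT, and 31 of the 39 lie below 0; 34 genes that are no members fall outside the drawn range.

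Sex parted the libraries exactly as genotype did. Xist, the transcript of the inactive X chromosome, was at 5.79, 5.21 and 4.796 CPM in the WT libraries and 2237, 2332 and 2285 CPM in the KO libraries. On the Y chromosome, Kdm5d, Eif2s3y, Uty and Ddx3y were at 0 in each KO library, which allows up to 3 counts or between 0.161 and 0.193 CPM a library, and Ddx3y was at 98.9, 95.2 and 86.3 CPM in WT. The WT libraries thus carried male transcripts and the KO libraries female ones, so for every comparison here sex and genotype cannot be told apart. With all genes on X and Y left out, 17 members were lower, since Acsl4 is X-linked, and 2 were higher.

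The counts by role below rest on few genes each, and roles were not compared by a test. Beside them stand the 46.2% lower over all members and 15.7% over all tested genes. Acyl-CoA synthetases, which trap fatty acids in the cell as CoA esters, were lower in 3 of 4 cases. Acsl1, the main long-chain synthetase of heart, was at 428, 429 and 443 CPM in the WT libraries and 397, 399 and 398 CPM in the KO libraries (log2 fold change -0.12 ± 0.028 (SE), adjusted p = 0.00166). The KO libraries were nearly identical to each other and all lay below WT. Acsl3, an endoplasmic reticulum and lipid droplet form, was at 111, 110.1 and 114 CPM in the WT libraries and 100.5, 107 and 100.5 CPM in the KO libraries (log2 fold change -0.12 ± 0.041 (SE), adjusted p = 0.023). Its fall did not pass the threshold without KO a (adjusted p = 0.109) or without KO c (adjusted p = 0.101), nor in DESeq2 with all libraries (adjusted p = 0.0602). Acsl4, which prefers arachidonic acid and lies on the X chromosome (chrX:142317993-142390535, minus strand, GRCm38), was at 78.5, 76.5 and 70.8 CPM in the WT libraries and 57.97, 60.2 and 62.4 CPM in the KO libraries (log2 fold change -0.32 ± 0.05 (SE), adjusted p = 1.54e-05). WT c was the lowest WT library for Acsl4 but still lay above all KO libraries. Acsl5 had 40.2, 34.96 and 34.3 CPM in the WT libraries and 35.4, 39.7 and 39.5 CPM in the KO libraries (adjusted p = 0.507), and its groups overlapped.

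The carnitine shuttle was split. Cpt1a, which couples long-chain acyl groups to carnitine at the outer mitochondrial membrane and is inhibited by malonyl-CoA (chr19:3322334-3385733, plus strand), was at 93.4, 93.5 and 98.9 CPM in the WT libraries and 107, 103 and 106 CPM in the KO libraries (log2 fold change 0.15 ± 0.041 (SE), adjusted p = 0.00766). All KO libraries lay above all WT libraries, and Cpt1a was one of the 2 members that rose. Cpt2, the inner membrane enzyme that returns the acyl group to CoA, was at 51.1, 49.96 and 51.2 CPM in the WT libraries and 45.1, 39.3 and 46.3 CPM in the KO libraries (log2 fold change -0.22 ± 0.059 (SE), adjusted p = 0.00641). KO b was the lowest library, and without it the fall of Cpt2 did not pass the threshold (adjusted p = 0.069). Slc25a20, the acylcarnitine carrier and a gene of the further list below, was lower without overlap. It was at 43.6, 48.3 and 44.9 CPM in the WT libraries and 40.5, 40.4 and 39.8 CPM in the KO libraries (log2 fold change -0.18 ± 0.056 (SE), adjusted p = 0.0154). Slc22a5, the carnitine importer of the same list, had means of 15.8 CPM in WT and in KO (adjusted p = 0.941). The ratio of Cpt1a to Cpt2 within a library, chosen after the values were seen, was 1.83, 1.87 and 1.93 in WT and 2.36, 2.62 and 2.30 in KO. An exact two-sided permutation test of this ratio gave p = 0.10, the smallest that 3 against 3 libraries allow (adjusted p = 0.20 over 4 ratios).

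Among the other carnitine acyltransferases, Crat, which buffers acetyl-CoA as acetylcarnitine, was at 309.6, 312 and 310.0 CPM in the WT libraries and 299, 284 and 302 CPM in the KO libraries. Every KO library lay below WT, yet the adjusted p was 0.0712 over all libraries and 0.0246 without WT c. Crot, the peroxisomal octanoyltransferase, had group means of 32.03 ± 2.48 CPM and 32.9 ± 1.86 CPM (SD, n = 3) in WT and KO (adjusted p = 0.757). Cpt1b, the muscle form of the outer membrane enzyme, was counted at only 3.76, 4.49 and 4.599 CPM in the WT libraries and 3.97, 4.42 and 3.65 CPM in the KO libraries (adjusted p = 0.681). Its value is uncertain, because 94.8% of its exon bases are shared with the same-strand gene model Gm44502, and how reads in shared exons were counted is not given in the sources used here. Ratios of Cpt1a to Cpt1b, a pair chosen after the values were seen, were 24.8, 20.8 and 21.5 in WT and 26.8, 23.3 and 29.2 in KO. These groups overlapped (exact two-sided permutation p = 0.20, adjusted p = 0.267 over 4 ratios).

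The acyl-CoA dehydrogenases carry out the first oxidation and differ in the chain length they accept. Acadl, the long-chain enzyme, was at 639, 650.2 and 700.2 CPM in the WT libraries and 611, 603 and 593 CPM in the KO libraries (log2 fold change -0.14 ± 0.03 (SE), adjusted p = 0.000915). Acadm, the medium-chain enzyme, was at 361, 364 and 383 CPM in the WT libraries and 327, 336 and 341 CPM in the KO libraries (log2 fold change -0.14 ± 0.031 (SE), adjusted p = 0.000931). Both fell with no overlap between the groups, and WT c was the highest library for each. Acads, the short-chain enzyme, went the other way with 81.8, 79.9 and 81.9 CPM in the WT libraries and 88.8, 84.9998 and 91.7 CPM in the KO libraries (log2 fold change 0.13 ± 0.044 (SE), adjusted p = 0.0299). Its rise passed no threshold without WT a (adjusted p = 0.0511), WT b (adjusted p = 0.117), KO a (adjusted p = 0.0869) or KO c (adjusted p = 0.155). It passed none in DESeq2 with all libraries (adjusted p = 0.0792) or with WT a and WT b summed as 1 library (adjusted p = 0.0625).

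Acadvl, the very-long-chain enzyme at the inner membrane, was at 268, 264 and 273 CPM in the WT libraries and 249.5, 259 and 254 CPM in the KO libraries, below WT in every KO library but with an adjusted p of 0.0649. Its exons overlap those of Dvl2 on the opposite strand over 45.0% of their bases, and strand use in counting is not given in the sources used here. Acad9, known mainly as a complex I assembly factor, had group means of 62.5 ± 1.44 CPM and 60.8 ± 1.32 CPM (SD, n = 3; adjusted p = 0.547). Acad11 had means of 37.9 ± 1.28 CPM and 35.8 ± 0.763 CPM (SD, n = 3; adjusted p = 0.281). Acad10 was scarce and spread widely at 5.15, 6.38 and 6.64 CPM in the WT libraries and 5.93, 9.16 and 7.84 CPM in the KO libraries (log2 fold change 0.33, adjusted p = 0.0943). For Acad10 the adjusted p was 0.0405 without WT c and 0.0206 without KO a.

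The enzymes that complete the mitochondrial cycle were lower in 4 of 5 cases. Hadha, the α subunit of the trifunctional protein, was at 659, 664 and 686 CPM in the WT libraries and 619, 621 and 637 CPM in the KO libraries (log2 fold change -0.10 ± 0.027 (SE), adjusted p = 0.00665). Hadhb, the β subunit with the thiolase activity, was at 302, 298 and 288 CPM in the WT libraries and 289.8, 280.0 and 289 CPM in the KO libraries (adjusted p = 0.287), and its groups overlapped. The ratio of Hadha to Hadhb averaged 2.27 ± 0.105 in WT and 2.18 ± 0.043 in KO (SD, n = 3), and its groups overlapped (exact two-sided permutation p = 0.40, also the adjusted p over 4 ratios). Of the 50-base words in Hadhb transcripts, 56.6% also occur in Gm13910, which leaves its count uncertain. These 2 genes lie side by side on chromosome 5 in opposite directions.

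Hadh, the dehydrogenase for medium and short chains, was at 254, 254 and 269 CPM in the WT libraries and 237, 239 and 241 CPM in the KO libraries (log2 fold change -0.12 ± 0.033 (SE), adjusted p = 0.00904). WT c was its highest library, and without KO a the adjusted p was 0.0506. Echs1, the short-chain enoyl-CoA hydratase, was at 135, 131 and 126 CPM in the WT libraries and 119, 121 and 121 CPM in the KO libraries (log2 fold change -0.12 ± 0.038 (SE), adjusted p = 0.0172). Its call was lost without WT a (adjusted p = 0.0764), WT b (adjusted p = 0.0563) or KO a (adjusted p = 0.0763). Acaa2, the mitochondrial thiolase that releases acetyl-CoA, was at 279, 279 and 264 CPM in the WT libraries and 251, 244 and 247 CPM in the KO libraries (log2 fold change -0.15 ± 0.033 (SE), adjusted p = 0.00104). Every KO library lay below every WT library for Acaa2.

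Auxiliary enzymes prepare unsaturated chains for the cycle, and 2 of the 3 fell. Eci2, an enoyl-CoA isomerase of peroxisomes and mitochondria, was at 67.6, 69.4 and 70.04 CPM in the WT libraries and 60.8, 58.2 and 60.9 CPM in the KO libraries (log2 fold change -0.20 ± 0.047 (SE), adjusted p = 0.00183). Decr1, the mitochondrial 2,4-dienoyl-CoA reductase, was at 70.1, 66.9 and 67.2 CPM in the WT libraries and 62.3, 60.4 and 62.7 CPM in the KO libraries (log2 fold change -0.14 ± 0.047 (SE), adjusted p = 0.0264). The call for Decr1 was lost without WT a (adjusted p = 0.0989) or any of KO a, KO b and KO c (adjusted p = 0.0632, 0.103 and 0.051), and in DESeq2 with all libraries (adjusted p = 0.0709). Eci1, the main mitochondrial isomerase, had group means of 103 ± 4.05 CPM and 102 ± 0.853 CPM (SD, n = 3; adjusted p = 0.703).

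Of the 3 genes that carry electrons from β-oxidation to the respiratory chain, Etfb fell over all libraries. Etfb, the β subunit of the flavoprotein that accepts electrons from the dehydrogenases (chr7:43444083-43457800, plus strand), was at 191, 199 and 195 CPM in the WT libraries and 161, 162 and 154 CPM in the KO libraries (log2 fold change -0.30 ± 0.035 (SE), adjusted p = 2.5e-07). The KO libraries were tightly grouped and well below WT. Etfa, its partner subunit, was at 224, 214 and 201 CPM in the WT libraries and 209, 209 and 201 CPM in the KO libraries (adjusted p = 0.361), with overlapping groups. Without WT c, the lowest WT library, Etfa was lower too (log2 fold change -0.09, adjusted p = 0.02). Etfb to Etfa ratios, also chosen after the values were seen, were 0.852, 0.928 and 0.970 in WT and 0.770, 0.771 and 0.767 in KO. The groups did not overlap (exact two-sided permutation p = 0.10, the smallest possible, adjusted p = 0.20 over 4 ratios). Etfdh, which hands the electrons to ubiquinone, had 214, 217 and 217 CPM in the WT libraries and 226, 223 and 212 CPM in the KO libraries (adjusted p = 0.55). Etfb shares 69.1% of its exon bases with the same-strand gene model Gm45233, and how such reads were counted is not given in the sources used here.

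In peroxisomal oxidation 1 of 4 members passed the threshold. Acaa1a, the peroxisomal 3-ketoacyl-CoA thiolase (chr9:119339676-119350299, plus strand), was at 28.4, 27.2 and 28.4 CPM in the WT libraries and 23.05, 20.6 and 20.1 CPM in the KO libraries (log2 fold change -0.39 ± 0.071 (SE), adjusted p = 0.000114). KO c was the lowest library and KO a the highest of its group, still below all WT libraries. Its transcripts share 26.7% of their 50-base words with the paralog Acaa1b. Hsd17b4, the bifunctional enzyme of branched and very long chains, was at 109, 112 and 117 CPM in the WT libraries and 108, 103 and 107 CPM in the KO libraries (adjusted p = 0.101), below WT in each KO library. Acox3, an oxidase of branched chains, was at 26.99, 26.5 and 27.003 CPM in the WT libraries and 24.4, 25.1 and 25.98 CPM in the KO libraries (adjusted p = 0.314), also without overlap. Ehhadh, the other bifunctional enzyme, was at 8.75, 7.604 and 6.11 CPM in the WT libraries and 5.78, 6.69 and 6.44 CPM in the KO libraries (log2 fold change -0.26, adjusted p = 0.148), and its adjusted p was 0.0272 without WT c, the lowest WT library.

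Thioesterases release free fatty acid from CoA, and 1 of the 3 fell. Acot13, a mitochondria-associated thioesterase, was at 95.4, 92.2 and 104 CPM in the WT libraries and 88.4, 85.9 and 77.2 CPM in the KO libraries (log2 fold change -0.21 ± 0.051 (SE), adjusted p = 0.00232). KO c was lowest and WT c highest. Acot2, the mitochondrial long-chain form, had group means of 41.5 ± 2.53 CPM and 41.3 ± 2.26 CPM (SD, n = 3; adjusted p = 0.892). Acot1, its cytosolic paralog, had means of 10.8 ± 1.43 CPM and 10.05 ± 0.489 CPM (SD, n = 3; adjusted p = 0.436). Acot1 and Acot2 are neighbouring paralogs on chromosome 12 that share 23.5% of the Acot1 words and 24.55% of the Acot2 words of 50 bases, so reads from these stretches could be split between them. Mlycd, which removes the malonyl-CoA that inhibits CPT1, had means of 23.1 ± 0.349 CPM and 23.7 ± 1.87 CPM (SD, n = 3; adjusted p = 0.732).

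Of the ketone enzymes, the pair that turns acetoacetate into acetyl-CoA was lower. Acat1, the mitochondrial acetoacetyl-CoA thiolase (chr9:53580522-53610382, minus strand), was at 305, 303 and 299 CPM in the WT libraries and 266, 259 and 259 CPM in the KO libraries (log2 fold change -0.21 ± 0.03 (SE), adjusted p = 6.78e-06). Oxct1, the CoA transferase that commits ketone bodies to oxidation, was at 492, 491 and 509 CPM in the WT libraries and 486, 459 and 457 CPM in the KO libraries (log2 fold change -0.09 ± 0.03 (SE), adjusted p = 0.0219). For Oxct1 the KO a library came close to WT, and the call was lost without KO b (adjusted p = 0.114) or KO c (adjusted p = 0.121), and in DESeq2 with all libraries (adjusted p = 0.0615). Bdh1, the β-hydroxybutyrate dehydrogenase, was scarce at 5.56, 7.502 and 6.899 CPM in the WT libraries and 6.25, 7.704 and 6.98 CPM in the KO libraries (adjusted p = 0.776), and its groups overlapped.

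Ucp2, a mitochondrial carrier of the uncoupling protein family (chr7:100493337-100502020, plus strand), showed the largest fold change of any member that passed the threshold. It was at 38.1, 34.5 and 35.7 CPM in the WT libraries and 26.1, 23.9 and 23.7 CPM in the KO libraries (log2 fold change -0.55 ± 0.066 (SE), adjusted p = 2.71e-07). All KO libraries lay below all WT libraries, and the gap between the groups exceeded the range within either.

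**Figure D3:**
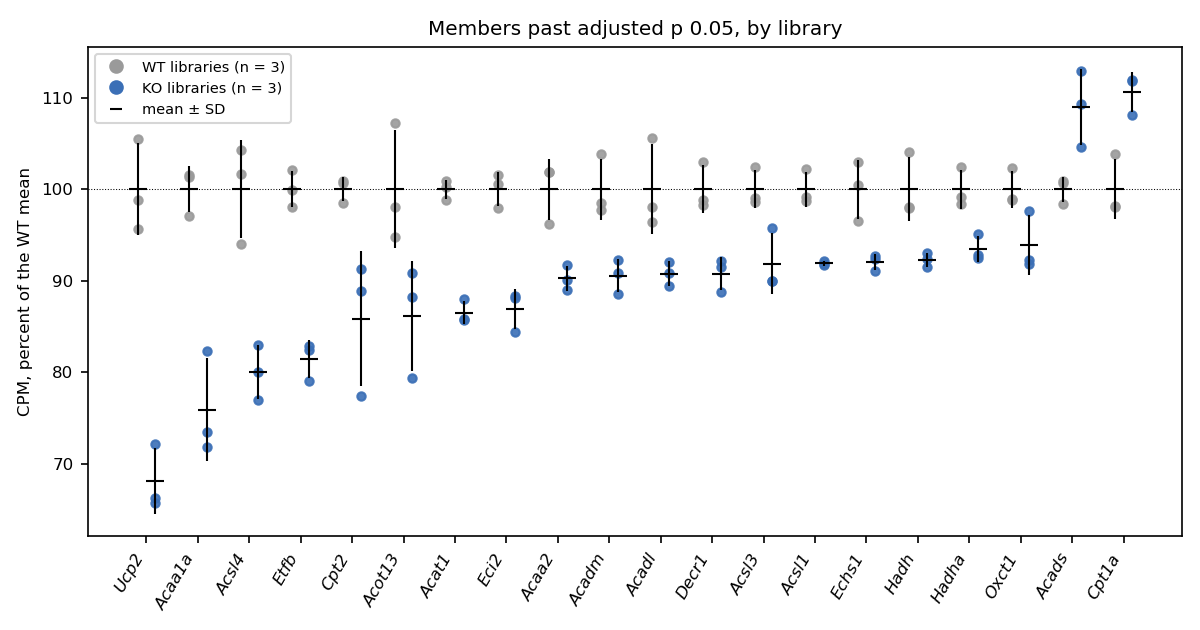
CPM of the 20 members past an adjusted p of 0.05 in each library, as a percent of the WT mean (y axis), ordered by log2 fold change; grey points are WT, blue points KO, and black marks the mean ± SD (n = 3). Ucp2 averaged 68.1% of WT and Oxct1 93.9%, whereas Acads and Cpt1a averaged 109% and 111%.

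Levels can be compared between genes only per length, here as CPM per kilobase of annotated exon. In WT hearts Acadl was highest at 346 ± 16.999 CPM per kilobase (SD, n = 3). Etfb followed at 218 ± 4.34 CPM per kilobase, but its count is uncertain too, since 69.1% of its exon bases are shared with Gm45233. Acaa2 came next at 181 ± 6.03 CPM per kilobase and Acadm at 180.4 ± 5.99 CPM per kilobase, and these last 2 overlapped between libraries. Among the synthetases Acsl1 led at 104 CPM per kilobase, against 28.3 for Acsl3, 14.1 for Acsl4 and 8.598 for Acsl5. Cpt1a was at 22.1 and Cpt1b, with its uncertain count, was last at 1.48. Oxct1 stood at 141 and Bdh1 at 1.82 CPM per kilobase. Of the 38 neighbouring pairs in this order, 17 overlapped between WT libraries. The order was nearly the same in KO, where 23 members held the same rank and none moved by more than 2 ranks.

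**Figure D4:**
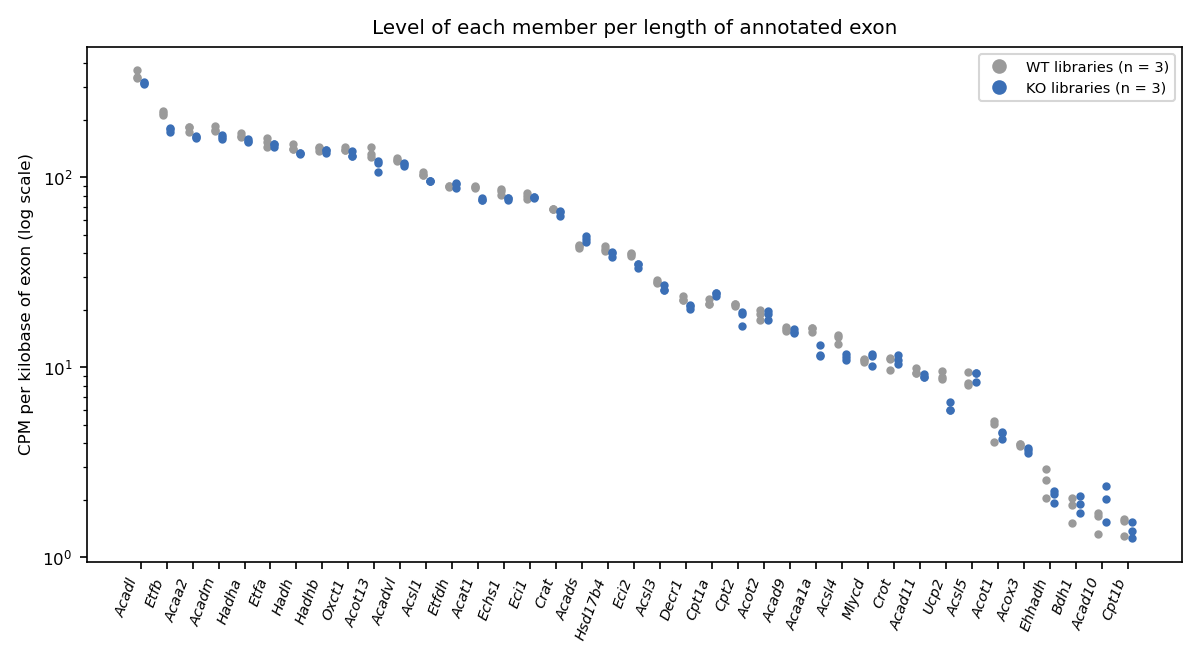
CPM per kilobase of annotated exon (y axis, log scale) of each member in each library, ordered by the WT mean; grey points are WT and blue points KO (n = 3 libraries a group). Levels run from Acadl at 346 to Cpt1b at 1.48 in WT, a far wider range than any difference between the groups.

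A further list of 40 genes of carnitine transport and acyl-CoA, branched-chain, peroxisomal and ketone metabolism had 33 genes in the table, of which 11 were lower (33.3%) and 3 were higher (9.09%), beside the 15.7% and 14.6% of all tested genes. Without WT b, 7 of them were lower. Acss1, which makes acetyl-CoA from acetate in mitochondria, was at 43.1, 44.2 and 46.4 CPM in the WT libraries and 31.4, 31.9 and 30.6 CPM in the KO libraries (log2 fold change -0.51 ± 0.058 (SE), adjusted p = 1.27e-07). Ech1, an auxiliary dienoyl-CoA isomerase, was at 101, 93.7 and 97.6 CPM in the WT libraries and 78.6, 82.9 and 80.99 CPM in the KO libraries (log2 fold change -0.27 ± 0.043 (SE), adjusted p = 2.99e-05). Phyh, the peroxisomal hydroxylase of phytanic acid, was at 158, 156 and 153 CPM in the WT libraries and 136, 135 and 128 CPM in the KO libraries (log2 fold change -0.23 ± 0.037 (SE), adjusted p = 3.07e-05). Acadsb, the dehydrogenase of short branched chains, was at 69.8, 73.7 and 69.6 CPM in the WT libraries and 61.6, 63.7 and 61.6 CPM in the KO libraries (log2 fold change -0.19 ± 0.047 (SE), adjusted p = 0.00268). All of these fell with no overlap between the groups.

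The 3 genes of that list that rose were Nudt19, Acot7 and Acot4. Nudt19, a peroxisomal CoA hydrolase, was at 40.02, 41.2 and 40.4 CPM in the WT libraries and 46.8, 51.1 and 48.7 CPM in the KO libraries (log2 fold change 0.27 ± 0.055 (SE), adjusted p = 0.000493). Acot7, a cytosolic thioesterase, was at 26.2, 28.4 and 25.5 CPM in the WT libraries and 30.1, 33.2 and 31.02 CPM in the KO libraries (log2 fold change 0.23 ± 0.066 (SE), adjusted p = 0.0101), with an adjusted p of 0.063 without KO b. Acot4, a peroxisomal thioesterase, was close to the detection limit at 0.521, 0.357 and 0.197 CPM in the WT libraries and 0.901, 1.14 and 1.395 CPM in the KO libraries (log2 fold change 1.63 ± 0.4 (SE), adjusted p = 0.00251). Acacb, which makes the malonyl-CoA that inhibits CPT1, was at 282, 286 and 273 CPM in the WT libraries and 286, 279 and 295 CPM in the KO libraries (adjusted p = 0.503).

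Of 20 transcriptional regulators of these genes that were measured, 4 were higher (20%) and 3 lower (15%), shares close to those of all tested genes. Ppara, the nuclear receptor that responds to fatty acids, was at 69.8, 68.4 and 66.8 CPM in the WT libraries and 92.3, 93.1 and 97.7 CPM in the KO libraries (log2 fold change 0.47 ± 0.044 (SE), adjusted p = 5.13e-09). Ppargc1a, the coactivator PGC-1α, was at 338, 336 and 341 CPM in the WT libraries and 281, 285 and 280.3 CPM in the KO libraries (log2 fold change -0.26 ± 0.03 (SE), adjusted p = 1.23e-07). The receptor and its coactivator thus went in opposite directions, each without overlap between the groups. Esrra, the receptor ERRα, was at 67.1, 63.7 and 69.8 CPM in the WT libraries and 76.1, 76.3 and 78.8 CPM in the KO libraries (log2 fold change 0.21 ± 0.047 (SE), adjusted p = 0.00135).

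Of the NF-Y subunits, which bind CCAAT boxes together, Nfya and Nfyc were higher in RNA. The study itself found Nfya mRNA unaltered in E18.5 KO hearts by qRT-PCR, and NFYa protein decreased there. Nfya was at 41.9, 45.7 and 41.5 CPM in the WT libraries and 51.4, 49.7 and 54.4 CPM in the KO libraries (log2 fold change 0.27 ± 0.056 (SE), adjusted p = 0.000692). Nfyc was at 69.2, 66.9 and 69.4 CPM in the WT libraries and 77.8, 76.9 and 84.6 CPM in the KO libraries (log2 fold change 0.22 ± 0.048 (SE), adjusted p = 0.000773). The partner subunit Nfyb was at 20.7, 22.6 and 23.1 CPM in the WT libraries and 23.6, 20.3 and 21.5 CPM in the KO libraries (adjusted p = 0.89). Ncor1, a corepressor of nuclear receptors, was at 357, 354 and 362 CPM in the WT libraries and 336, 332 and 331 CPM in the KO libraries (log2 fold change -0.10 ± 0.029 (SE), adjusted p = 0.0084). Lpin1, a coactivator and phosphatidate phosphatase, was at 35.6, 37.9 and 37.9 CPM in the WT libraries and 32.3, 35.05 and 31.8 CPM in the KO libraries (log2 fold change -0.17 ± 0.061 (SE), adjusted p = 0.0352), a call that was lost without WT b (adjusted p = 0.115), WT c (0.0551), KO a (0.12) or KO c (0.142), and in DESeq2 with all libraries (adjusted p = 0.101).

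Of 14 measured PPAR targets outside the oxidation pathway, 6 were lower (42.9%) and 2 were higher (14.3%), beside 15.7% lower and 14.6% higher among all tested genes. Lpl, which frees fatty acids from circulating lipoproteins, was at 838, 841 and 838 CPM in the WT libraries and 596, 588 and 588 CPM in the KO libraries (log2 fold change -0.51 ± 0.025 (SE), adjusted p = 5.85e-15). Pdk4, the kinase that shuts off pyruvate dehydrogenase, was at 68.6, 71.1 and 60.9 CPM in the WT libraries and 44.7, 46.7 and 44.9 CPM in the KO libraries (log2 fold change -0.56 ± 0.056 (SE), adjusted p = 1.32e-08). Fabp3, the fatty acid binding protein of heart, was at 732, 781 and 912 CPM in the WT libraries and 649, 663 and 643 CPM in the KO libraries (log2 fold change -0.31 ± 0.045 (SE), adjusted p = 6.33e-06). WT c was the highest library for Fabp3 and the lowest WT library for Pdk4, and both genes were below WT in every KO library.

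Pnpla2, the lipase that releases stored fatty acids, was at 77.9, 75.5 and 73.98 CPM in the WT libraries and 63.9, 62.1 and 59.1 CPM in the KO libraries (log2 fold change -0.30 ± 0.047 (SE), adjusted p = 2.5e-05). Angptl4, an inhibitor of lipoprotein lipase, was at 3.36, 3.16 and 3.48 CPM in the WT libraries and 6.41, 6.57 and 6.49 CPM in the KO libraries (log2 fold change 0.96 ± 0.14 (SE), adjusted p = 9.91e-06). Vldlr, the very low density lipoprotein receptor, was at 238, 242 and 235 CPM in the WT libraries and 289, 295 and 304 CPM in the KO libraries (log2 fold change 0.31 ± 0.032 (SE), adjusted p = 1.65e-08). Among genes for lipid uptake, Lpl was thus lower and Vldlr higher, each without overlap. Cd36 was lower too, with means of 466 CPM in WT and 417 CPM in KO (log2 fold change -0.16 ± 0.043 (SE), adjusted p = 0.0053), but its groups overlapped. Slc27a1 had means of 45.7 CPM in WT and 46.6 CPM in KO (adjusted p = 0.715).

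**Figure D5:**
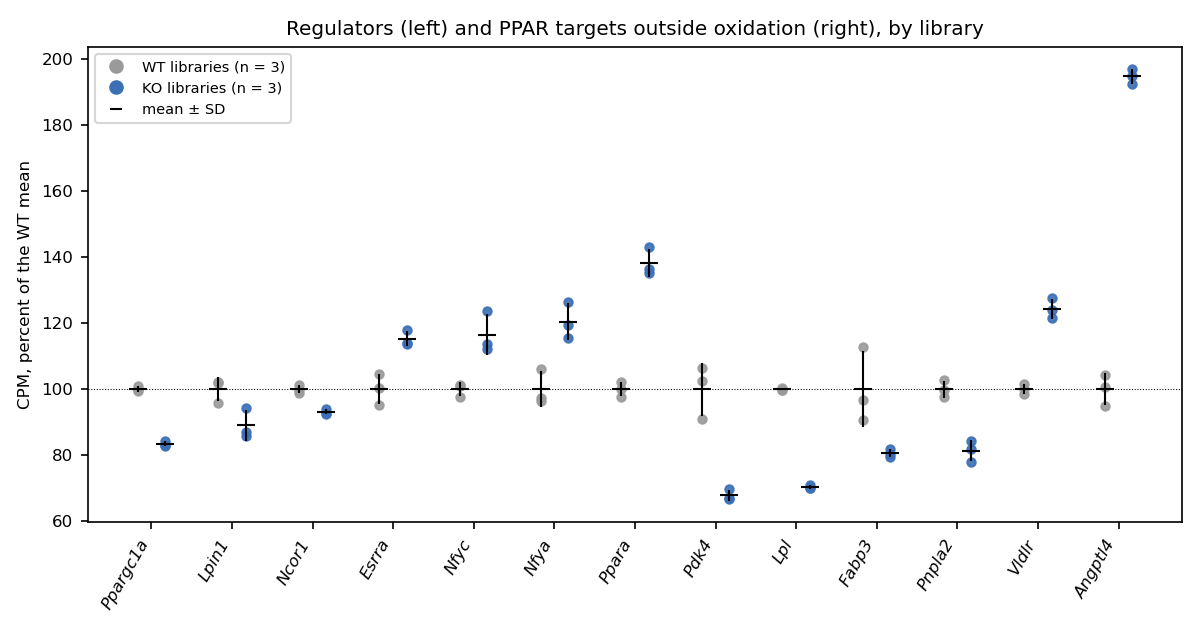
CPM of regulators (Ppargc1a to Ppara) and PPAR targets outside oxidation (Pdk4 to Angptl4) in each library, as a percent of the WT mean (y axis); grey points are WT, blue points KO, and black marks the mean ± SD (n = 3). Ppara averaged 138% and Ppargc1a 83.5% of WT, and Angptl4 195% and Pdk4 67.9%.

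Markers of other cell types were read beside these results. Ventricular cardiomyocyte markers were abundant, with a summed level of 119709 to 122887 CPM in WT and 117483 to 118467 CPM in KO. Ttn dominated this sum, with a mean of 78884 CPM in WT and 76438 CPM in KO. Of the 9 markers, 5 were lower and 3 higher. For the lower ones the KO mean was 84.3% of WT for Tnnt2, 84.6% for Tnni3, 88.3% for Myl2, 93.4% for Myl3 and 96.9% for Ttn. For the higher ones it was 103% for Myh7, 104% for Actc1 and 126% for Hey2. Atrial markers summed to 614 to 623 CPM in WT and 1027 to 1049 CPM in KO, and 3 of 7 were higher, led by Myl4 at 139, 138 and 149 CPM in the WT libraries and 313, 294 and 307 CPM in the KO libraries (log2 fold change 1.10 ± 0.036 (SE), adjusted p = 5.29e-19). Nppa and Myl4 made up most of this sum, with Nppa at a mean of 372 CPM in WT and 597 CPM in KO. Myl7 also rose, from a mean of 46.3 CPM in WT to 77.7 CPM in KO. The other 4, Nr2f1, Nr2f2, Stard10 and Bmp10, did not pass the threshold (adjusted p = 0.51, 0.536, 0.626 and 0.904). All 5 measured hepatocyte markers were lower, with a sum of 28.3 to 35.3 CPM in WT and 12.5 to 12.9 CPM in KO. Alb was at 9.498, 10.5 and 12.8 CPM in the WT libraries and 3.87, 3.54 and 2.36 CPM in the KO libraries, so traces of hepatocyte transcripts were lower in KO. Their part in the members' differences was not tested. Endothelial markers had 3 of 7 lower and 1 higher (1146 to 1149 CPM in WT, 1109 to 1128 CPM in KO), and fibroblast markers had 3 of 7 lower (3915 to 3958 CPM in WT, 3647 to 3720 CPM in KO).

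Of 10 adipocyte markers 4 were measured, 1 of them lower, with sums of 306 to 333 CPM in WT and 289.7 to 315 CPM in KO; Ucp1 and Adipoq, which define these cells, were not analysed here. Skeletal muscle markers had 3 of 10 measured and summed to 3.59 to 5.77 CPM in WT and 5.21 to 6.36 CPM in KO, with 1 lower and 1 higher. Erythroid markers had 3 of 7 measured, 1 lower and 1 higher (33.5 to 35.5 CPM in WT, 35.8 to 43.0 CPM in KO). Immune markers had 1 of 7 lower (52.7 to 55.7 CPM in WT, 53.3 to 62.0 CPM in KO). The part of any cell type in the members' differences was not tested.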

How the data were processed

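Total RNA of hearts at E18.5 (3 WT, 3 KO) was depleted of ribosomal RNA and sequenced in pairs. The submitters' processing notes name cutadapt 1.18, HISAT2, StringTie and the mm10 build; the counting rule and its use of strand are not given in the sources used here. The deposited table holds raw counts per gene made by the authors, without normalization, together with columns of the authors' own comparison (fold changes, mean levels and p-values), which were not used. Columns carry the genotype and no replicate number, and 0 columns of other samples were present. The labels number the replicates and the methods call them biological; p-values measure the spread between these libraries.

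Members and lists were chosen with earlier results of these data known. Named genes were all members, and from each other list up to 4 genes per direction with the smallest adjusted p among those past the threshold, plus Ppara, Ppargc1a, Esrra and Nfya. Acacb, Nfyb, Cd36, Slc27a1, Slc25a20, Slc22a5 and the markers shown were named after their values were seen, as were the 4 ratios of pairs of members. Counts were filtered (filterByExpr), scaled by TMM and tested with edgeR 4.0.16 (quasi-likelihood, Benjamini-Hochberg over 13804 genes, threshold 0.05) in R 4.3.3, after the code was tested on simulated data. The SE of a log2 fold change is its size divided by the square root of the F statistic. Other settings used limma 3.58.1, DESeq2 1.42.0, other scalings and filters, and each library left out. Libraries held 15567624 to 19875546 counts; floors of 3 counts cover counting error only. Positions, exon lengths and overlaps are from GENCODE M21 (GRCm38, the build named mm10), shared words of 50 bases from its transcripts, and promoters from RefSeq (GRCm38.p6).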

Additional observations from a re-analysis of the deposited data

How the results depend on the processing

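Across 15 other settings, 13 of the 20 members past the threshold kept their call in each setting that tested them, 7 lost it in at least 1 (Acsl3, Cpt2, Acads, Hadh, Echs1, Decr1 and Oxct1), and none changed direction. With 1 library left out, the number of lower members ranged from 14 to 21, of higher members from 1 to 3, of lower genes of the further list from 7 to 12 and of higher genes of that list from 2 to 3. The median log2 fold change over the members then ranged from -0.11 to -0.09, and the members' share from 0.621% to 0.622% in WT and from 0.595% to 0.597% in KO. DESeq2 called 1 higher and 15 lower members, without Acads, Acsl3, Decr1 and Oxct1, and WT a and WT b summed as 1 library gave 1 higher and 18 lower. Without Rn45s in the library totals, the members' share was 0.636% in WT and 0.613% in KO. Directions turned only in members that did not pass the threshold, each with 1 library left out: Crot ranged from -0.029 to 0.071, Eci1 from -0.052 to 0.0047, Acot2 from -0.059 to 0.030, Mlycd from -0.0032 to 0.098 and Bdh1 from -0.058 to 0.16 on the log2 scale. The cause was not tested. A leave-one-out fit leaves 2 libraries in 1 group. Members under about 10 CPM (Cpt1b, Acad10, Bdh1, Ehhadh) had the largest standard errors, so small changes in them were not detectable at this depth. No paired analysis was possible because column names show the genotype alone.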
